A study of Mus musculus with 4 samples.

Results

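The genes described here encode the enzymes and regulators that handle oxidants and glutathione in the cell. A list of 40 genes was set by name, and a gene was measured where the array held a probe set annotated with its symbol alone. Of the 40 genes, 36 were measured, by 70 probe sets, out of 18193 genes on the array. Prdx1 and Gsta1 were found only on probe sets shared with other genes, and Prdx6 and G6pdx had no probe set under these rules. Probe sets of a gene were averaged, and 15 genes had 1 probe set and 21 had several.

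RNA came from mammary basal epithelial cells of virgin female CD1 mice 8 to 12 weeks old, sorted as lineage-negative, CD24-positive and CD29-high. The cells formed colonies in Matrigel, a basement membrane gel, and all cultures received EGF at 50 ng/ml. Wnt3A cultures also received purified Wnt3A at 200 ng/ml, a secreted ligand of the canonical Wnt pathway, and control cultures received vehicle (spelled vesicle in the sample labels). RNA was taken from passage 2 colonies after 6 to 7 days. Each group had 2 arrays, and both groups carry the numbers 1 and 2. What a number marks is not in the labels, nor is whether the arrays are separate animals or cultures, so a p-value here covers only the spread of these arrays, which may be technical. So few arrays limit the precision: the standard error of a treatment difference had a median of 0.15 log2 units over genes, and that of a difference between numbers 0.13.

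The deposited values are log2 differences from each probe set's own median over the 4 arrays, so they compare arrays and carry no level. A coarse band of level could be read from the precision with which the numbers were stored. An array at a lower level can move a probe set to a lower band, so genes that vary widely may be placed too low. The band placed 35 of the 36 genes above log2 8 in at least 1 probe set, and Hmox1 between 4 and 8. Of the 10 basal markers, which include Krt5, Krt14 and Trp63, all 10 lay in the top band. So did 10299 of all 18193 genes, 8 of 12 measured luminal markers and 7 of 12 squamous markers. The band therefore does not single out basal cells. The centring does not allow any marker to be called absent. In bulk RNA, fewer cells of a type and less RNA per cell cannot be told apart.

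Oxidants and electrophiles modify KEAP1, the adaptor that otherwise sends the transcription factor NRF2 (encoded by Nfe2l2) for degradation. Stabilised NRF2 pairs with small MAF proteins on antioxidant response elements and raises transcription of enzymes that make glutathione, attach it to electrophiles, reduce thioredoxin and supply NADPH. Glutathione itself is made from cysteine by the GCLC and GCLM ligase, used by glutathione peroxidases and transferases, and recycled by GSR. NRF2 is controlled largely at the protein level, which arrays do not measure.

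Stretches upstream of 5 of these genes are shown because the genes differ in how they varied between arrays, described further on. RefSeq promoter windows of 300 bases (GRCm38.p6, 250 before to 50 after the start) were found for 30 of the 36 genes. Capitals mark matches to a motif on either strand: TGACNNNGC, the core of the antioxidant response element, in Nfe2l2, Gsta3 and Txnrd1, TGAGTCA, the AP-1 site, in Srxn1, and TGATGCAA, a composite C/EBP-ATF site, in Slc7a11. Each stretch reads 5′ to 3′ on the strand of its gene. The stretches are chr2:152105402-152105505 (plus) for Srxn1, chr10:82859094-82859142 (plus) for Txnrd1, chr1:21240444-21240492 (plus) for Gsta3, chr2:75704875-75704913 (minus) for Nfe2l2 and chr3:50443633-50443699 (minus) for Slc7a11.
Srxn1: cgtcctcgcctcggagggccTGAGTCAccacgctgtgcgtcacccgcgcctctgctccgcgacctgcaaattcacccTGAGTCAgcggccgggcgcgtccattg
Txnrd1: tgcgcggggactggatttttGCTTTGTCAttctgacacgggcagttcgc
Gsta3: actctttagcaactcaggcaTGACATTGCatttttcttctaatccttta
Nfe2l2: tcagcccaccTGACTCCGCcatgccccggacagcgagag
Slc7a11: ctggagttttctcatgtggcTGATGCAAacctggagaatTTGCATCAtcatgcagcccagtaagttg

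The element core lay in the window of 9 of the 30 genes (30%), which were Gclm, Gsta3, Gstm5, Mgst1, Nfe2l2, Pgd, Sod1, Srxn1 and Txnrd1. It lay in 16.2% of array genes with a window and in 12.4% of all 32851 windows. In Srxn1 and Pgd the match was downstream of the start and is not printed. The AP-1 site lay in 4 of the 30 genes, Gstm5, Gstp1, Mgst2 and Srxn1, against 5.33% of array genes and 5.2% of all windows. Matches to different motifs did not overlap in these genes. The composite site was matched in Slc7a11 alone, at 2 places on opposite strands, and in 0.803% of array genes and 0.895% of all windows. A match is a run of letters and does not show that a factor binds. Only these exact patterns were searched, so a window without a match may still hold another form of an element. In Srxn1 the AP-1 match nearer the start is followed by gc and differs from the searched element core by a single base.

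The first comparison set colonies grown with Wnt3A against vehicle colonies. No gene passed in either direction: of all 18193 genes, 0% had an adjusted p under 0.05 with limma and Benjamini-Hochberg adjustment, and the lowest adjusted p was 0.27. The lowest among the 36 genes was 0.42, for Gsta4. Differences are therefore given as values. Both Wnt3A arrays lay above both controls in 11 of the 36 genes (30.6%), against 17% of all genes. These were Cbr1, Aldh3a1, Srxn1, Txnrd1, Txn1, Gsta2, Gsta4, Gsto1, Gpx1, Gpx2 and Pgd. The gap between the groups was 0.03 or less in Cbr1, Gsto1 and Gpx1. Both lay below in 4 genes (11.1%), Gsr, Gstm2, Gstm5 and Sod1, against 17.5% of all genes. With each array centred on its median, the counts were 9 above, without Gsto1 and Gpx1, and 5 below (17.1% and 18.5% of all genes). Over the 10299 genes of the top band, where 35 of the 36 lie, the shares were 17.5% above and 18.9% below. The median difference over the 36 genes was 0.12 log2 units, beside 0.00 over all genes, and 0.01 without Wnt3A 2. The unadjusted limma p was under 0.05 for 6 genes with higher values (3.55% of all genes) and 1 with a lower value (3.82% of all genes). A difference of at least 1 log2 unit was seen for Gsta2 and Aldh3a1, both higher (1.01% of all genes), and for 0 of the 36 genes in the lower direction (0.693% of all genes).

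**Figure D1:**
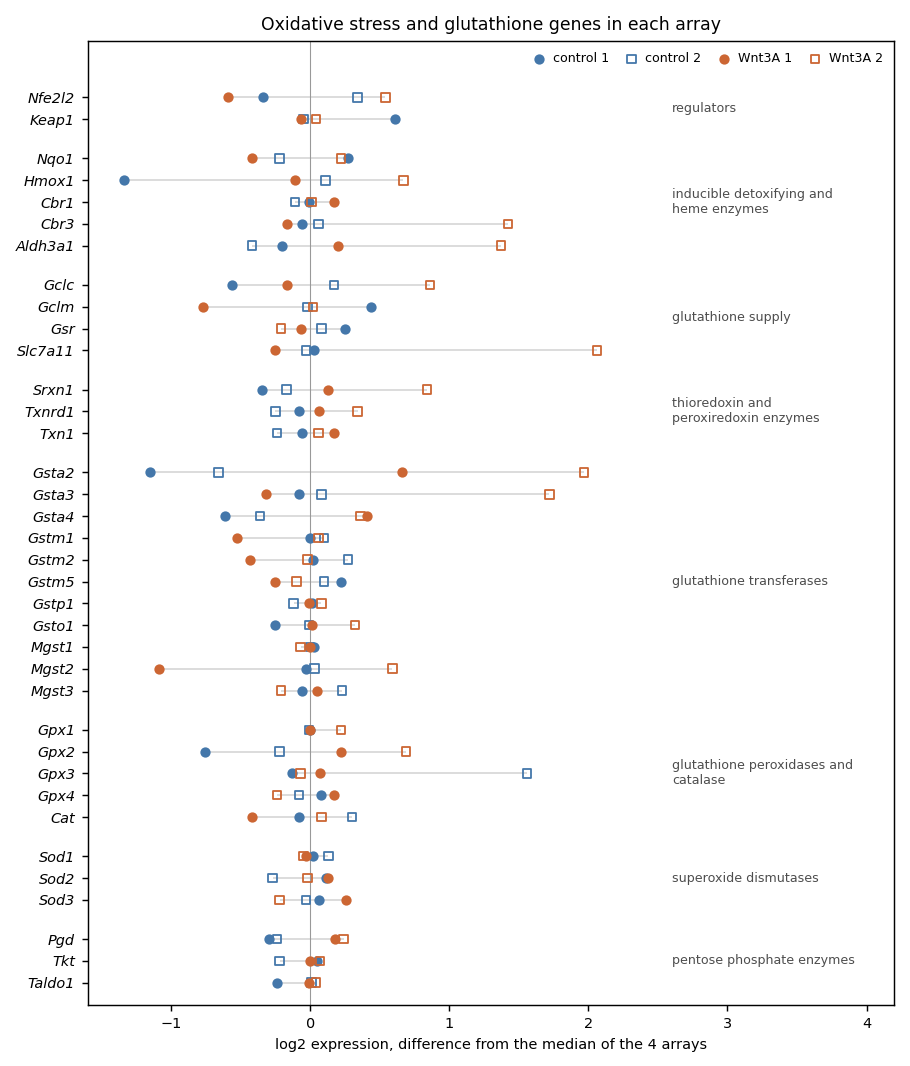
Log2 value relative to each gene's median over the 4 arrays, for the 36 genes ordered by role. Colour marks the group, with filled circles for number 1 and open squares for number 2. In Gsta2 the values run from -1.15 in control 1 to 1.97 in Wnt3A 2, while those of Mgst1 and Gstp1 lie close together.

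**Figure D2:**
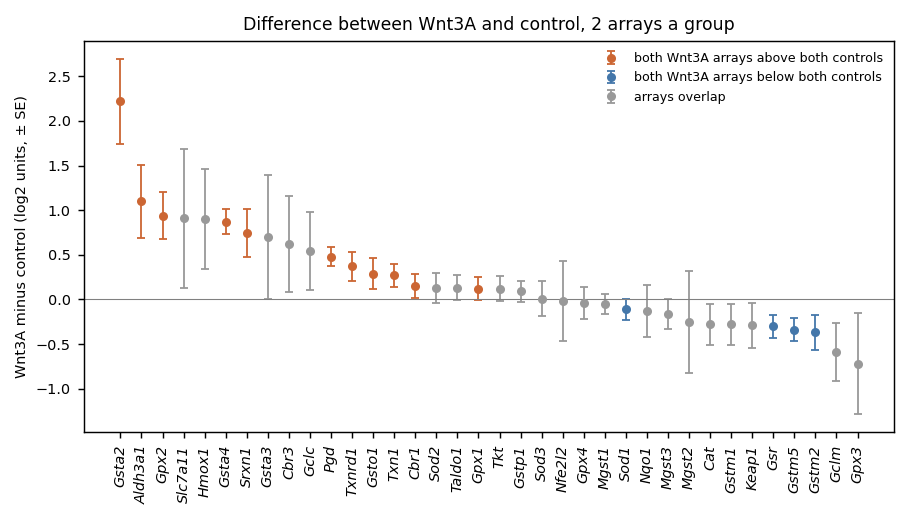
Wnt3A minus control difference in log2 units for each of the 36 genes, with the standard error of the limma fit as bars. Gsta2 lies farthest from 0, at 2.22, and Gpx3 lies farthest below 0, at -0.72.

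The regulators did not separate by treatment. Nfe2l2 measured -0.34 and 0.34 in controls 1 and 2, against -0.59 and 0.54 in Wnt3A 1 and 2. Both arrays of number 1 were low and both of number 2 were high, whatever the treatment, and the treatment difference was -0.02 ± 0.45 (SE, n = 2 per group). Keap1, the repressor of NRF2, measured 0.61 in control 1 and -0.05 in control 2, with -0.07 in Wnt3A 1 and 0.04 in Wnt3A 2. Control 1 was high and the other arrays lay close together, and the difference of -0.29 ± 0.25 was 0.04 without control 1.

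Among the inducible detoxifying and heme enzymes, the difference spanned -0.13 to 1.10. Aldh3a1, an aldehyde dehydrogenase, measured -0.20 and -0.42 in controls 1 and 2, and 0.20 and 1.37 in Wnt3A 1 and 2. The groups did not overlap, at 1.10 ± 0.41 or 2.14-fold (limma adjusted p = 0.67), and the difference was 0.51 without Wnt3A 2. Hmox1, heme oxygenase 1, measured -1.34 and 0.11 in the controls, against -0.11 and 0.67 with Wnt3A. It was higher with Wnt3A within each number, but Wnt3A 1 lay below control 2. Its difference of 0.90 ± 0.56 (adjusted p = 0.86) was 0.18 without control 1. Cbr3, a carbonyl reductase, measured -0.06 and 0.06 in the controls, -0.17 in Wnt3A 1 and 1.42 in Wnt3A 2. A single array was high, and without it the difference of 0.62 ± 0.54 became -0.17. Nqo1, the quinone reductase widely used as an NRF2 readout, measured 0.27 and -0.22 in the controls, against -0.42 and 0.22 with Wnt3A. The groups overlapped, at -0.13 ± 0.29, and the sign turned without control 1 (0.12) or without Wnt3A 1 (0.19). Cbr1, another carbonyl reductase, differed by 0.15 ± 0.13.

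Of the 4 genes that supply glutathione, Slc7a11, Gclc and Gclm had groups that overlapped with probe sets averaged, and Gsr was lower in both Wnt3A arrays. Slc7a11, the cystine importer subunit whose composite sites are shown above, measured 0.03 and -0.03 in the controls, -0.25 in Wnt3A 1 and 2.06 in Wnt3A 2. A single array was high, and the difference of 0.91 ± 0.78 (limma adjusted p = 0.95) became -0.25 without Wnt3A 2. Gclc, the catalytic ligase subunit, measured -0.56 and 0.17 in the controls, against -0.17 and 0.86 with Wnt3A. It was higher with Wnt3A within each number, the groups overlapped, and the difference of 0.54 ± 0.44 was 0.02 without Wnt3A 2. A probe set of Gclc taken alone separated by treatment, with -0.43 and -0.03 in the controls against 0.03 and 0.55 with Wnt3A. Gclm, the modifier subunit of the ligase, measured 0.44 and -0.02 in the controls, against -0.77 and 0.02 with Wnt3A. It was lowest in Wnt3A 1 and nearly level within number 2, and the treatment difference of -0.59 ± 0.32 (adjusted p = 0.82) was -0.20 without Wnt3A 1 and -0.98 without Wnt3A 2. A probe set of Gclm separated too, with 0.65 and 0.13 in the controls against -0.67 and -0.13 with Wnt3A. The other measured 0.24 and -0.16, against -0.87 and 0.16, so its groups overlapped. Gsr, which reduces oxidised glutathione, measured 0.25 and 0.08 in the controls, against -0.07 and -0.21 with Wnt3A, a difference of -0.30 ± 0.13 (adjusted p = 0.74).

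All 3 measured thioredoxin genes lay higher in both Wnt3A arrays, with a median difference of 0.37. Srxn1, sulfiredoxin, which restores overoxidised peroxiredoxins, measured -0.35 and -0.17 in the controls, against 0.13 and 0.84 with Wnt3A. The difference was 0.74 ± 0.27 or 1.67-fold (adjusted p = 0.65), and 0.39 without Wnt3A 2. Its probe sets differed in size, from 0.09 to 1.26. Txnrd1, thioredoxin reductase, measured -0.08 and -0.25 in the controls, against 0.06 and 0.34 with Wnt3A. The difference was 0.37 ± 0.16 (adjusted p = 0.73), and 0.22 without Wnt3A 2. Txn1, thioredoxin itself, differed by 0.27 ± 0.13.

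Of the 11 measured glutathione transferases, 3 had both Wnt3A arrays above the controls and 2 had both below, with a median difference of -0.05. Gsta2, of the alpha class, measured -1.15 and -0.66 in the controls, against 0.66 and 1.97 with Wnt3A. The groups were 1.32 units apart, and the difference of 2.22 ± 0.48 or 4.65-fold (limma adjusted p = 0.49) was the largest of the 36 genes in size. It lay between 1.56 and 2.87 when single arrays were left out. A probe set annotated to Gsta1, Gsta2 and Gm3776 together measured -1.47 and -0.27 in the controls, against 0.27 and 3.14 with Wnt3A, so the signals of these near copies cannot be told apart there. Gsta4, which conjugates lipid aldehydes, measured -0.61 and -0.36 in the controls, against 0.41 and 0.36 with Wnt3A. The Wnt3A arrays lay close together, and the difference was 0.87 ± 0.14 or 1.83-fold (adjusted p = 0.42), between 0.75 and 0.99 without single arrays. Gsta3 measured -0.08 and 0.08 in the controls, -0.32 in Wnt3A 1 and 1.72 in Wnt3A 2. Again a single array was high: the difference of 0.70 ± 0.69 became -0.32 without it, and the probe sets gave 0.24 and 1.16.

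The mu-class genes Gstm2 and Gstm5 were lower in both Wnt3A arrays, at -0.37 ± 0.20 and -0.34 ± 0.13, and Gstm2 differed by -0.16 without Wnt3A 1. Gstm1 differed by -0.28 ± 0.23, with -0.53 in Wnt3A 1 and values from -0.00 to 0.10 in the other arrays, and by 0.01 without Wnt3A 1. The mu-class genes outside the list differed by -0.02 (Gstm3), -0.27 (Gstm4), 0.11 (Gstm6) and -0.26 (Gstm7). The mu-class genes resemble each other in sequence, so their separate values are uncertain. Mgst2, a microsomal transferase, measured -0.03 and 0.03 in the controls, -1.09 in Wnt3A 1 and 0.59 in Wnt3A 2, a spread between the Wnt3A arrays with no match in the controls. Gstp1, Gsto1, Mgst1 and Mgst3 differed by -0.16 to 0.29.

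Peroxidases and catalase gave 2 genes with higher values in both Wnt3A arrays. Gpx2, an epithelial glutathione peroxidase, measured -0.76 and -0.22 in the controls, against 0.22 and 0.69 with Wnt3A. The difference was 0.94 ± 0.26 or 1.92-fold (adjusted p = 0.59). It was nearly equal within number 1 (0.97) and number 2 (0.90). Gpx3, the secreted peroxidase, measured -0.13 and 1.56 in the controls, against 0.07 and -0.07 with Wnt3A. Only control 2 stood high, and the difference of -0.72 ± 0.57 became 0.13 without it. Gpx1 and Gpx4, the cytosolic and the phospholipid peroxidase, differed by 0.12 ± 0.13 and -0.04 ± 0.18, and Cat, catalase, by -0.28 ± 0.23.

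The superoxide dismutases showed small treatment differences. Sod1 (cytosolic) differed by -0.11, Sod2 (mitochondrial) by 0.13 and Sod3 (extracellular) by 0.01. In the pentose phosphate pathway, which makes NADPH, Pgd measured -0.30 and -0.24 in the controls, against 0.18 and 0.24 with Wnt3A. Its difference of 0.48 ± 0.11 or 1.39-fold (limma adjusted p = 0.54) was the same in each number, 0.48, and its 4 probe sets gave 0.45 to 0.51. Tkt and Taldo1, of the non-oxidative branch, differed by 0.12 and 0.13.

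Wnt3A 2 held the highest value of 18 of the 36 genes (50%), against 18.4% of all genes and 20.5% of those in the top band. Control 1, control 2 and Wnt3A 1 held the highest value of 6 genes each, and of 30.5%, 19.7% and 31.5% of all genes. In Cbr3, Aldh3a1, Slc7a11, Gsta2 and Gsta3, 5 of the 36 genes (13.9%), it lay at least 1 log2 unit above every other array, as it did for 0.489% of all genes. Wnt3A 1 held the lowest value of 12 genes (33.3%) and control 1 that of 10 (27.8%), against 19.5% and 19.7% of all genes. The median value of the 36 genes was 0.08 in Wnt3A 2 and between -0.05 and -0.00 in the other arrays. Within number 2 the median treatment difference was 0.24, and within number 1 it was 0.01. Of the 36 genes, 15 were higher with Wnt3A within both numbers (29.5% of all genes), 7 were lower within both (29.7% of all genes) and 14 had opposite signs.

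Marker lists of other cell states also differed between the arrays. The 12 squamous keratinocyte markers, among them Krt1, Ivl and Sprr1a, had medians of -0.56 and -0.40 in the controls, 0.40 in Wnt3A 1 and 1.91 in Wnt3A 2. They were highest in Wnt3A 2 for 11 of 12 (18.4% of all genes). For 9 of them both Wnt3A arrays lay above the controls (17% of all genes). Krt1, Krt10 and Sprr1b had the largest treatment differences, 4.72 ± 1.78, 3.14 ± 1.20 and 2.99 ± 0.72. Without Wnt3A 2 these were 2.05, 1.36 and 2.33. Of 12 measured luminal markers, 5 were lower in both Wnt3A arrays (17.5% of all genes). Another 2 were higher (17% of all genes), Aldh1a3 at 1.00 ± 0.57 and Prom1 at 0.50 ± 0.19. The luminal list had medians of 0.06 and 0.07 in the controls, against 0.00 and -0.10 with Wnt3A. The differences of Cited1, Foxa1 and Krt19 were -2.52 ± 1.16, -2.34 ± 0.48 and -1.71 ± 0.80, and without control 2 they were -0.97, -1.94 and -0.83. That of Aldh1a3 was 0.16 without control 1. The basal markers had medians of -0.38 and 0.06 in the controls, against -0.05 and 0.08 with Wnt3A. Fibroblast, endothelial, immune, erythroid and adipocyte markers had median treatment differences of -0.05 to 0.08. The part of these markers in the values of the 36 genes was not tested.

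**Figure D3:**
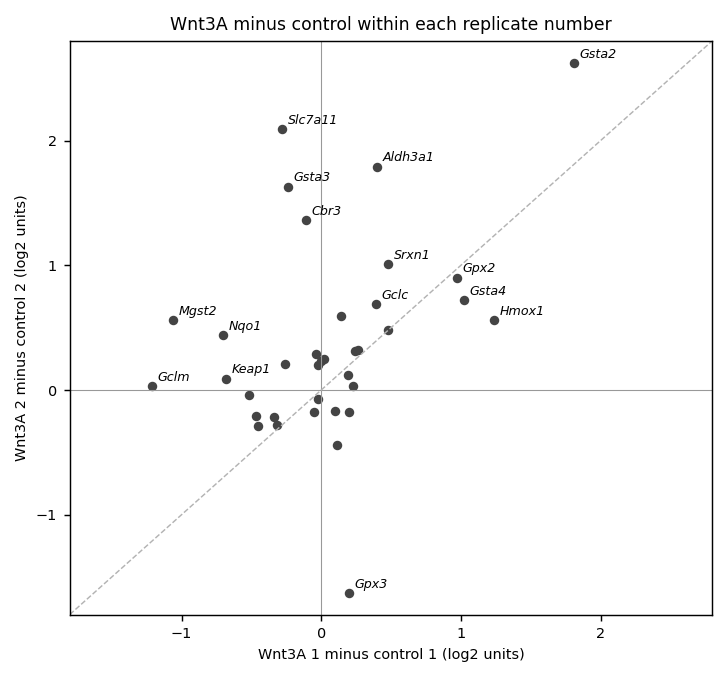
Wnt3A minus control difference in log2 units within number 1 (horizontal axis) and within number 2 (vertical axis), a point for each of the 36 genes. Gpx2 and Pgd lie near the line of equal differences, while Slc7a11, at -0.28 and 2.09, and Gsta3, at -0.24 and 1.63, lie far above it.

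Arrays numbered 1 were then compared with arrays numbered 2, with treatment balanced between them. Again 0% of the 18193 genes had an adjusted p under 0.05 with limma, and the lowest adjusted p was 0.17 over all genes and 0.31 among the 36. Both arrays of number 1 lay below both of number 2 in 9 of the 36 genes (25%), against 14.3% of all genes. These were Nfe2l2, Hmox1, Cbr3, Gclc, Gsta3, Gstm1, Mgst2, Cat and Taldo1. Both lay above in 4 genes (11.1%), Mgst1, Gpx4, Sod2 and Sod3, against 31.5% of all genes. With each array centred on its median, the counts were 11 below and 3 above, and the shares of all genes were 17.9% below and 26.2% above. In the top band, without that centring, 17.1% of genes lay below and 28.7% above. The median difference of number 1 minus number 2 was -0.13 over the 36 genes and 0.06 over all genes. It lay between -0.26 and -0.02 with single arrays left out, the value nearest 0 being that without Wnt3A 2. The unadjusted limma p was under 0.05 for 2 genes lower in number 1 (4.18% of all genes) and for 0 higher (7.45% of all genes), and the shares of all genes were 4.88% lower and 5.84% higher with each array centred. A difference of at least 1 was seen for Slc7a11, Hmox1 and Gsta3, lower in number 1 (1.04% of all genes), and for 0 genes higher (0.407% of all genes).

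For Nfe2l2, whose treatment difference was near 0, both arrays of number 1 were low. The difference was -0.90 ± 0.15 or 1.87-fold (limma adjusted p = 0.31), and it lay between -1.03 and -0.77 without single arrays. Its probe sets gave -0.41 and -1.40. Gclc followed the same order with probe sets averaged, at -0.88 ± 0.29 (adjusted p = 0.40), and -0.54 without Wnt3A 2. Its probe sets gave -1.31 and -0.46, and in the latter Wnt3A 1, at 0.03, lay above control 2, at -0.03. Hmox1 followed the order of Nfe2l2 at -1.11 ± 0.48 or 2.16-fold (adjusted p = 0.47), and -0.49 without control 1.

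Slc7a11, Gsta3, Cbr3 and Gsta2 had number differences of -1.13 ± 0.73, -1.10 ± 0.58, -0.86 ± 0.48 and -0.90 ± 1.10. The first 3 of these shrank to -0.08, -0.28 and -0.18 without Wnt3A 2. That of Gsta2 was 0.41 without Wnt3A 2, 0.01 without control 1 and -2.21 without control 2. Mgst2 differed by -0.87 ± 0.42, and by -0.35 without Wnt3A 1. Gpx3 differed by -0.78 ± 0.57, and by 0.04 without control 2. Gpx2 differed by -0.50 ± 0.47, and by -0.02 without control 1 and -0.05 without Wnt3A 2. Cat was lower in number 1 by a difference of -0.44 ± 0.17, and Gpx4, Sod2 and Sod3 were higher by 0.28 ± 0.11, 0.26 ± 0.13 and 0.28 ± 0.13. The probe sets of Sod2 ranged from -0.11 to 0.82.

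**Figure D4:**
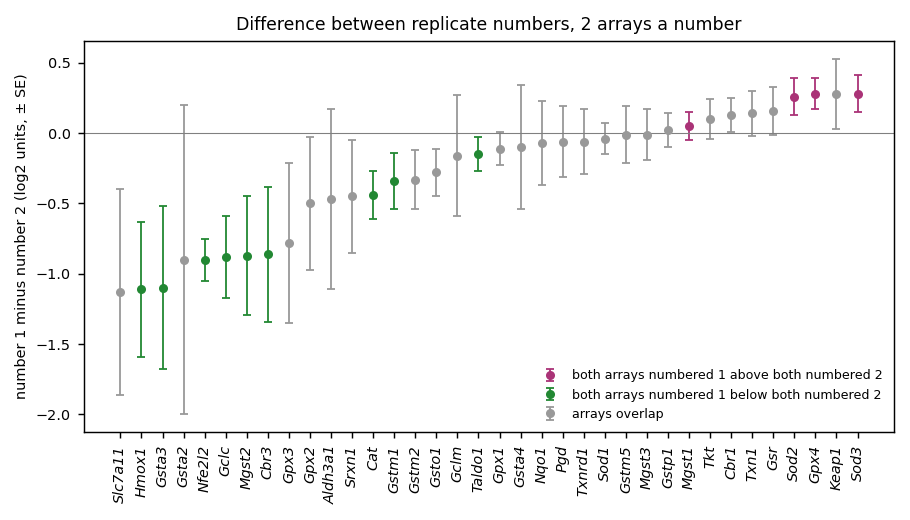
Difference of number 1 minus number 2 in log2 units for each of the 36 genes, with the standard error of the limma fit as bars. Nfe2l2, at -0.90, has a short bar, while Slc7a11, at -1.13, and Gsta2, at -0.90, have long ones.

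Marker lists differed between the numbers as well. The squamous markers had a median difference of -0.88, lower in number 1 for 11 of 12, and for 2 of them the numbers did not overlap. Over all genes, both arrays of number 1 lay lower in 14.3% and higher in 31.5%. These shares stand beside all the counts of this paragraph. Of the 10 basal markers, 5 were lower in both arrays of number 1, among them Myh11 at -1.43 ± 0.47 and Krt14 at -0.57 ± 0.16. The 1 that was higher was Krt5, at 0.39 ± 0.20. The probe sets differed, from -2.62 to -0.24 for Myh11 and from -1.86 to 0.11 for Krt14. The luminal markers had a median of -0.24, with 1 lower and 2 higher. Their part in the number differences of the 36 genes was not tested.

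For 15 of the 36 genes the difference was under 0.3 in size in both comparisons. They include Keap1, Nqo1, Txn1, Gstp1, Tkt and all 3 superoxide dismutases. No share of all genes was computed for this count, so it has no background to be read against. A small difference need not mean steady values. Keap1 lay close to the limit, at -0.29 and 0.28, and Nqo1 differed with treatment by -0.70 within number 1 and 0.44 within number 2.

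A wider set of 117 genes of the same pathways, of which 106 were measured, gave a median treatment difference of -0.03. None had an adjusted p under 0.05 with limma. Both Wnt3A arrays lay above both controls in 23 genes (21.7%) and below in 26 (24.5%). The all-gene shares of 17% and 17.5% stand beside these and the counts by role that follow. Of the 106, 10 genes with higher and 8 with lower values had an unadjusted limma p under 0.05, as did 3.55% and 3.82% of all genes. NRF2 partners and repressors had 4 higher and 1 lower of 13, led by the small MAF gene Maff at 0.58 ± 0.17, with Sqstm1 at 0.34 ± 0.12 and Mafg at 0.31 ± 0.15 (0.16 without control 2). Further glutathione genes had 5 higher and 8 lower of 27. Chac1, which degrades glutathione, measured -0.61 and -0.37 in the controls, against 0.37 and 0.48 with Wnt3A, at 0.92 ± 0.14 (adjusted p = 0.42). Gstt1 and Gpx7 differed by -0.86 ± 0.23 and -0.83 ± 0.17.

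Further thioredoxin and repair genes had 3 higher and 9 lower of 20. Selenop, the selenium carrier, measured 0.33 and 1.38 in the controls, against -0.47 and -0.33 with Wnt3A, at -1.26 ± 0.37, and -0.73 without control 2. Txnip, an inhibitor of thioredoxin, and Prdx4, the peroxiredoxin of the endoplasmic reticulum, differed by -0.68 ± 0.24 and -0.63 ± 0.16, and Txnip by -0.36 without control 2. Selenop, Txnip and Prdx4 were the 3 largest of this list in size. Of the 20 genes, 13 had negative differences and 7 had positive ones, among the latter Sesn2 at 0.44 ± 0.17.

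Further NRF2-linked enzymes and exporters had 8 higher and 4 lower of 33. Ces2g, a carboxylesterase, measured -0.88 and -0.97 in the controls, against 1.07 and 0.88 with Wnt3A. Its difference of 1.90 ± 0.13 or 3.74-fold had the lowest adjusted p of all genes, 0.27. Pir differed by -0.91 ± 0.38, and by -0.40 without control 2. Abcc4, an exporter, differed by 0.83 ± 0.43, and by 0.32 without Wnt3A 2. Oxidases that make oxidants had 3 higher and 4 lower of 13. Duoxa1 and Duox1, which form an epithelial hydrogen peroxide generator, differed by 0.93 ± 0.17 and 0.90 ± 0.22, and Xdh, xanthine dehydrogenase, by 0.69 ± 0.15.

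In the comparison by number, the wider set gave 18 genes higher (17%) and 20 lower (18.9%) in number 1, beside 31.5% and 14.3% of all genes, with a median difference of -0.03, and none had an adjusted p under 0.05 with limma. Bach1, a repressor that competes with NRF2 for its elements, measured -0.52 and 0.31 in the controls, against -0.38 and 0.45 with Wnt3A. It had the same order as Nfe2l2, low in number 1, at -0.83 ± 0.12 (adjusted p = 0.29), and its probe sets gave -1.39 and -0.26. Me1, malic enzyme, which makes NADPH, measured -0.41 and 0.29 in the controls, against -0.29 and 0.50 with Wnt3A, at -0.74 ± 0.13 (adjusted p = 0.32). Nox4, an NADPH oxidase, was lower in number 1 at -1.14 ± 0.41, with -0.87 in control 1 and 1.08 in control 2. Gsk3b, Abcc4, Pir, Oplah, Selenop, Msrb2 and Aox1 also had negative differences, from -0.88 to -0.37. Palb2, Slc3a2, Gstt3, Txnrd2 and Duoxa2 had positive ones, from 0.37 to 0.53.

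**Figure D5:**
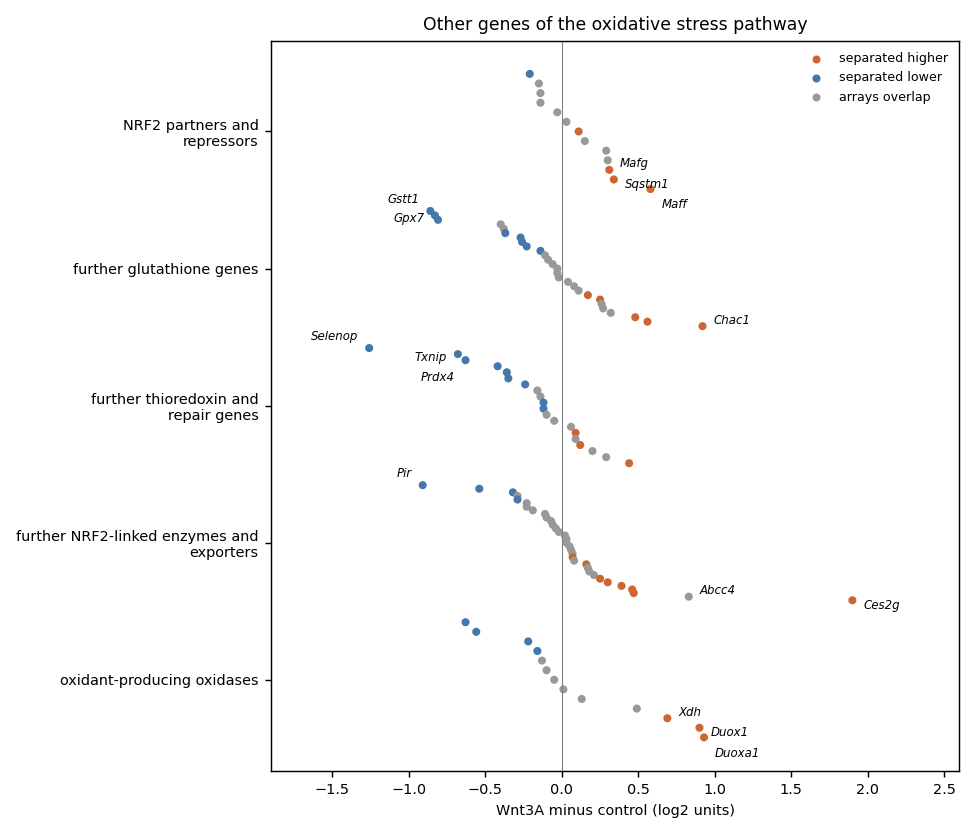
Wnt3A minus control difference in log2 units for the 106 further pathway genes, a point for each gene in rows by role, with the 3 of largest size named in each row. Ces2g lies farthest to the right, at 1.90, and Selenop farthest to the left, at -1.26.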

How the data were processed

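Single-colour Affymetrix mouse expression arrays were used. The authors deposited log2 values, and RMA is named without a version in the processing notes of the submitters. The row centring has no step given in the sources used here, and the largest absolute row median was 5.0e-07, so levels were removed, while differences between arrays were kept. Array medians lay between -0.016 and 0.020. Of 45101 probe sets, 64 were array controls, 34945 carried a single gene symbol, 932 several and 9160 none in the platform annotation. RefSeq held the Entrez identifiers of 34741 and changed 0 symbols.

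All single-symbol probe sets of a gene were averaged, with no filter. Groups were compared over 18193 genes by two-sided tests of lmFit and eBayes (limma 3.58.1, R 4.3.3), which leave 2 residual degrees of freedom and give the moderated standard errors printed. P-values were adjusted by Benjamini-Hochberg, with a threshold of 0.05. Exact permutation of 2 against 2 arrays gives no two-sided p below 0.33. Tested on simulated data with 50 changed genes of each size among 18193, the treatment fit called 10% of differences of 1 log2 unit, 76% of 2 and 94% of 3. The number fit called 16%, 78% and 94%. Unchanged genes called numbered 8 in the treatment fit and 4 in the number fit. The simulated noise was independent between arrays, with none shared by arrays of the same number, unlike the data. These shares therefore do not tell how many changes of a given size would be called in the data.

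Level bands came from the spacing of the stored numbers. They held 39.9%, 42.5% and 17.6% of probe sets (log2 8 to 16, 4 to 8 and below 4), and simulated bands were right for 97.3%, 83.5% and 87.2%. The simulation used the same small spread between arrays throughout, so it does not cover genes that vary widely. Shares over top-band genes were added after seeing the data. The genes and lists were chosen with earlier results of these data known. Values in every array are given for Nfe2l2, Keap1, Nqo1, Hmox1, Gclc, Gclm, Srxn1, Txnrd1 and Slc7a11 and for the 10 largest differences in each comparison. For the wider pathway lists the 3 largest differences per list and comparison are named, and for cell markers those of the squamous and luminal lists by treatment. Gstm3, Gstm4, Gstm6, Gstm7, Aldh1a3, Prom1, Myh11, Krt14, Krt5, Txn2, Txnrd3 and Sesn2 were named after their values were seen. So was the treatment difference of Txnrd2. Alternatives were other probe set rules, a filter on the lowest band, quantile normalization, array centring, robust eBayes, a replicate block and each array left out. Motifs were searched and figures drawn in Python 3.11.15 with numpy 2.4.6, pandas 2.3.3 and matplotlib 3.10.9.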

Additional observations from a re-analysis of the deposited data

How the results depend on the processing

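No gene of the 18193 passed an adjusted p of 0.05 under any alternative run, in either comparison. With single arrays left out, where the lone array of a group is assumed to vary like the others, the members' median treatment difference lay between 0.01 and 0.18. Members with every remaining Wnt3A array above every remaining control then numbered 14 to 21, and those with every one below 8 to 14. The number comparison gave medians of -0.26 to -0.02, with 7 to 11 members above and 13 to 20 below. Fewer arrays overlap less in any gene, and no share of all genes is given for these settings. The counts with single arrays left out therefore have no background to be read against, and no conclusion is drawn from them. Leaving out arrays turned the sign of 9 of 64 treatment values, in 7 genes. Their ranges were -0.59 to 0.54 for Nfe2l2, -0.63 to 0.04 for Keap1, -0.45 to 0.19 for Nqo1, -0.17 to 1.42 for Cbr3, -0.25 to 2.06 for Slc7a11, -0.32 to 1.72 for Gsta3 and -1.56 to 0.13 for Gpx3. It turned 10 of 60 number values, with ranges of -0.06 to 0.62 for Keap1, -0.42 to 0.27 for Nqo1, -0.77 to 0.44 for Gclm, -0.95 to 0.06 for Srxn1, -0.35 to 0.24 for Txnrd1, -2.21 to 0.41 for Gsta2 and -1.59 to 0.04 for Gpx3. Of 112 treatment and 105 number values under the other settings, the treatment difference of Nfe2l2 alone changed sign, to 0.03 with its top-band probe sets, and the cause was not tested. Many of these values could not change. The lowest-band filter, robust eBayes and the replicate block leave each of these differences as it was. The probe set rules do the same for genes with 1 probe set. The replicate block, which cannot move the members' median of 0.12 in this balanced design, called 0 genes. Deviations of arrays of the same number correlated at 0.44 across genes, but with 2 pairs and no label for the number they share only a number.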
